A study of Homo sapiens with 18 samples.

Results

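Primed enhancers, here the loci that carried histone H3 monomethylated at lysine 4 (H3K4me1) with none of the other modifications mapped, were examined in MOLM-13 cells treated with PR-957 or with DMSO. Overlapping H3K4me1 intervals were merged into loci, and a locus was kept when it lay more than 2 kb from every transcription start site (TSS) of a protein-coding gene and overlapped no listed interval of H3K27ac, H3K27me3 or H3K4me3. Of 34932 H3K4me1 loci built from 108165 intervals, 23923 were distal to a TSS and 16133 of these were primed, which is 46.2% of all H3K4me1 loci and 67.4% of the distal ones. The choice used the positions of intervals and no counts. The study called its intervals from the reads, so a locus could enter the list through a library in which it was high. The absence of another modification means that the authors' lists hold no interval there, not that no read fell there.

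MOLM-13, an established human line of acute myeloid leukemia in which KMT2A is rearranged, gave all libraries. Cells received 100 nM PR-957 (also called ONX-0914), an inhibitor of the immunoproteasome subunit PSMB8, or the solvent DMSO. The sample labels give 72 h of treatment, and the study's text gives another time in a figure legend. Chromatin was profiled by Cut&Tag, in which an antibody against a modification directs the Tn5 transposase to cut and tag the DNA around it, with 2 libraries for each treatment and modification.

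H3K4me1 is deposited at enhancers mainly by the methyltransferases KMT2C and KMT2D. An enhancer that carries H3K4me1 alone is commonly called primed, one that gains H3K27ac from the acetyltransferases CREBBP and EP300 is called active, and one that carries H3K27me3 from the Polycomb repressive complex is called poised. In myeloid cells primed elements are known as sites that lineage transcription factors such as PU.1, the C/EBP proteins and RUNX1 have opened, and many of them become active only after a signal or in a later stage.

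Windows of 300 bases from the middle of the widest interval are printed for 8 loci on which the comparison below rests. Capitals mark matches, on either strand, to 9 short motifs that were searched in every locus. These were TGTGGT for RUNX, TTGCNNAA for C/EBP, GAGGAAGT for PU.1, AGATAA for GATA factors, GAAANNGAA for IRF, TGANTCA for AP-1, TGACNNNGC for the antioxidant response element (ARE), TGATTNAT for MEIS-HOX and a 12-letter core of the CTCF motif. AP-1 and ARE share letters, so that a match to one can lie inside a match to the other. All sequences are from hg38, plus strand. The first 3 belong to 3 of the 5 higher loci with the smallest p-values and show how rich in A and T most of the higher loci were, with the DHRS2 locus as the exception.
BCKDHB intron, higher, chr6:80164724-80165023: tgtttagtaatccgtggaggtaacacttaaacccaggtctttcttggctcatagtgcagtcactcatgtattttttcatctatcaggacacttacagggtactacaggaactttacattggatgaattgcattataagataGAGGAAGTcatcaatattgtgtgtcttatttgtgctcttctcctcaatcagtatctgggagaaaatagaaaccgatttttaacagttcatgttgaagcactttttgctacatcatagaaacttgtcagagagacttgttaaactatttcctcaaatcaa
Nearest COL12A1, higher, chr6:74608001-74608300: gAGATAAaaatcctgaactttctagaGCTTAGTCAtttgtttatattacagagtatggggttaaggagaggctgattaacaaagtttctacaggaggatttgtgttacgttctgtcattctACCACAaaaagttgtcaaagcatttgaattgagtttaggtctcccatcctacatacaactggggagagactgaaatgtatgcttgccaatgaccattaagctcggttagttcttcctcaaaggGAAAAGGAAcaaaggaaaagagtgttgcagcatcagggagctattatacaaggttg
Nearest DHRS2, higher, chr14:23647379-23647678: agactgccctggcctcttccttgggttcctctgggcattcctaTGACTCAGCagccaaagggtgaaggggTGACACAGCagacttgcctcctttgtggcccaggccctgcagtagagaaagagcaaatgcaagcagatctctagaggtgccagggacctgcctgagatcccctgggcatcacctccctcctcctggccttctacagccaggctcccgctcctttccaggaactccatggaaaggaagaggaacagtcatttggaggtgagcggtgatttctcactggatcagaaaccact
The GC content of these windows was 36.0%, 39.0% and 56.3%. The BCKDHB window holds 1 PU.1 match. The COL12A1 window holds 1 match each to RUNX, GATA, IRF and ARE. The DHRS2 window holds 1 AP-1 match inside an ARE match and a second ARE match.

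The next 3 windows are those of the 3 lower loci with the smallest p-values, and are shown for contrast.
AGBL4 intron, nearest BEND5, lower, chr1:48660074-48660373: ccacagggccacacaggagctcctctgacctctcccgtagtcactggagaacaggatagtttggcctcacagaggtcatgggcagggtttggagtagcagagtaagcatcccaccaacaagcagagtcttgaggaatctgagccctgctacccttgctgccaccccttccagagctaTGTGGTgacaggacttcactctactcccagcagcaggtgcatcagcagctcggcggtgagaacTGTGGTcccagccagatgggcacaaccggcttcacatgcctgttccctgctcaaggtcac
RAP1GAP2 intron, lower, chr17:2821777-2822076: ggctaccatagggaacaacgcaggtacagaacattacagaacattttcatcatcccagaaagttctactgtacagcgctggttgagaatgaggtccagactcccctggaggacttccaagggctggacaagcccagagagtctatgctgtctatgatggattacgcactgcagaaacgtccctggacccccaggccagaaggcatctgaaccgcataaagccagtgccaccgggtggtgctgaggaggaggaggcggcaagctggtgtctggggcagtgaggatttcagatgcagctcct
Nearest SLC35B1, lower, chr17:49696733-49697032: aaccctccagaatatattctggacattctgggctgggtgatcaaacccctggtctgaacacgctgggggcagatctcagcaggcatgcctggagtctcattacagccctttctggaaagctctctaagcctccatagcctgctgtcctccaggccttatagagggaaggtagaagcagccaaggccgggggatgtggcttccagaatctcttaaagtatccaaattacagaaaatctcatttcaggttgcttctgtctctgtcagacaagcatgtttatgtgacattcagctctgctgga
Their GC content was 57.7%, 54.7% and 49.7%. The BEND5 window holds 2 RUNX matches, and the other two hold none of the motifs.

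The last 2 windows are from the primed loci with the highest CPM of the widest interval, not divided by its width, neither of which passed the test between treatments.
ANKRD11 intron, chr16:89445116-89445415: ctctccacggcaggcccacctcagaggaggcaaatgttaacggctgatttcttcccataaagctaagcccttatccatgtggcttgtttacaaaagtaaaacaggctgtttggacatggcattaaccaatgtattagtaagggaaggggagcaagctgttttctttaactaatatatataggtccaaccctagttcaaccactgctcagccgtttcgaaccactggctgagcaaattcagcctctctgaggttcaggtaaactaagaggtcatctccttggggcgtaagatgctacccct
Nearest LMO4, chr1:87205557-87205856: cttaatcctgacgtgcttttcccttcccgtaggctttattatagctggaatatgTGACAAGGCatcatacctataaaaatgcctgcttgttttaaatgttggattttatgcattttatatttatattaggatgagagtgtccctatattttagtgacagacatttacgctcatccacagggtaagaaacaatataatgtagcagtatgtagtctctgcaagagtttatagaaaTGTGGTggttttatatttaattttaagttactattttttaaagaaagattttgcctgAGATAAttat
Their GC content was 46.3% and 31.7%. The ANKRD11 window holds no match, and the LMO4 window holds 1 match each to RUNX, GATA and ARE.

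The H3K4me1 counts summed to 30584219 and 23874111 for DMSO and to 15204186 and 22790073 for PR-957, so that PR-957 replicate 1 had the lowest depth. The replicates were not copies of each other, with a chi-square per degree of freedom of 2.73 for the DMSO pair and 2.45 for the PR-957 pair. The log2 CPM, counts scaled to the effective library size, over all intervals correlated at 0.977 between the DMSO libraries and at 0.962 between the PR-957 libraries. The sources used here do not say whether the 2 libraries of a treatment came from separate cultures, so the p-values measure the spread between these libraries, which may be technical. As a check of the labelled cell type, 9 of 12 myeloid markers, among them CD33, SPI1 and CSF1R, had an H3K4me3 interval within 2 kb of a TSS, while MPO, MNDA and PTPRC had none. Of 29 markers of other lineages 11 had one, among them PAX5.

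The primed loci covered 49.6 Mb of hg38, 31.5% of the 157.2 Mb under all H3K4me1 loci. The widest interval of a primed locus had a median width of 2545 bp, compared with 3900 bp for the 4759 distal loci that also carried H3K27ac and 5939 bp for the 2025 that carried H3K27ac and H3K4me3. The median distance to the nearest protein-coding TSS was 21316 bp, against 20712 bp for the H3K27ac loci, and 16% of the primed loci lay over 100 kb away. The middle of the interval fell in an intron of a protein-coding gene for 8448 loci (52.4%), between genes for 4984 (30.9%), in a gene of another type for 2320 (14.4%) and in an exon of a protein-coding gene for 381 (2.36%). Although protein-coding TSS were left out by the rule, 1824 loci (11.3%) lay within 2 kb of the TSS of a gene of another type, such as a long noncoding RNA. Among the loci named below, those at ANKRD11, LMO4, LRP1, COL12A1 and CD3E spanned such a TSS. So did the strongest RUNX1 locus and a called GCLC locus.

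The rule itself sets some distance to H3K27ac intervals, and this distance was not compared with another class. The nearest H3K27ac interval lay at a median of 17800 bp and a 25th percentile of 6340 bp. Of the primed loci 452 (2.8%) had one within 1 kb and 3256 (20.2%) within 5 kb. Just inside the 2 kb limit stood loci near SLC25A39 at 2004 bp and PDLIM1 at 2006 bp, with a mean CPM of 2.35 and 5.39. Just outside stood loci near TRAP1 and MMD, both at 2000 bp, with a mean CPM of 21.3 and 0.927.

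In base composition the primed loci stood below the other classes. Their median GC content was 43.2%, against 46.5% for distal loci with H3K27ac, 52.5% for the 385 distal loci with H3K27me3 and 50.4% for the 11009 loci within 2 kb of a TSS. The median ratio of observed to expected CpG was 0.203, against 0.222 at the H3K27ac loci and 0.319 near a TSS, so that few primed loci resembled CpG islands. Of the primed loci 35.5% consisted of 1 listed interval and 34.3% of 4 or more, while 10.5% and 75.8% of the H3K27ac loci did.

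The H3K4me1 level, given as CPM per kb of the widest interval, was lower at primed loci than at distal loci with H3K27ac in every library. The median was 0.972 and 1.03 CPM per kb under DMSO and 1.15 and 1.13 under PR-957. At the H3K27ac loci it was 1.69 and 1.72 in DMSO and 1.76 and 1.74 in PR-957. The 4 medians of the primed class lay apart from the 4 of the H3K27ac class, but the loci overlapped. In DMSO replicate 1 the upper quartile of primed loci was 1.36 and the lower quartile of H3K27ac loci 1.15. The gap was small among loci of few listed intervals. Over the mean of the 4 libraries the median was 0.793 against 0.831 for loci of 1 interval and 0.941 against 0.992 for 2. For loci of 4 intervals it was 1.53 against 1.98. In PR-957 replicate 1 it was 0.819 against 0.811 for loci of 1 interval. Within the primed class, both PR-957 medians lay above both DMSO medians, at 1.14 ± 0.0155 (SD, n = 2) against 1.00 ± 0.0386 (SD, n = 2). With 2 libraries against 2 an exact permutation test cannot give a p below 1 in 3, so no test of these medians is reported.

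**Figure D1:**
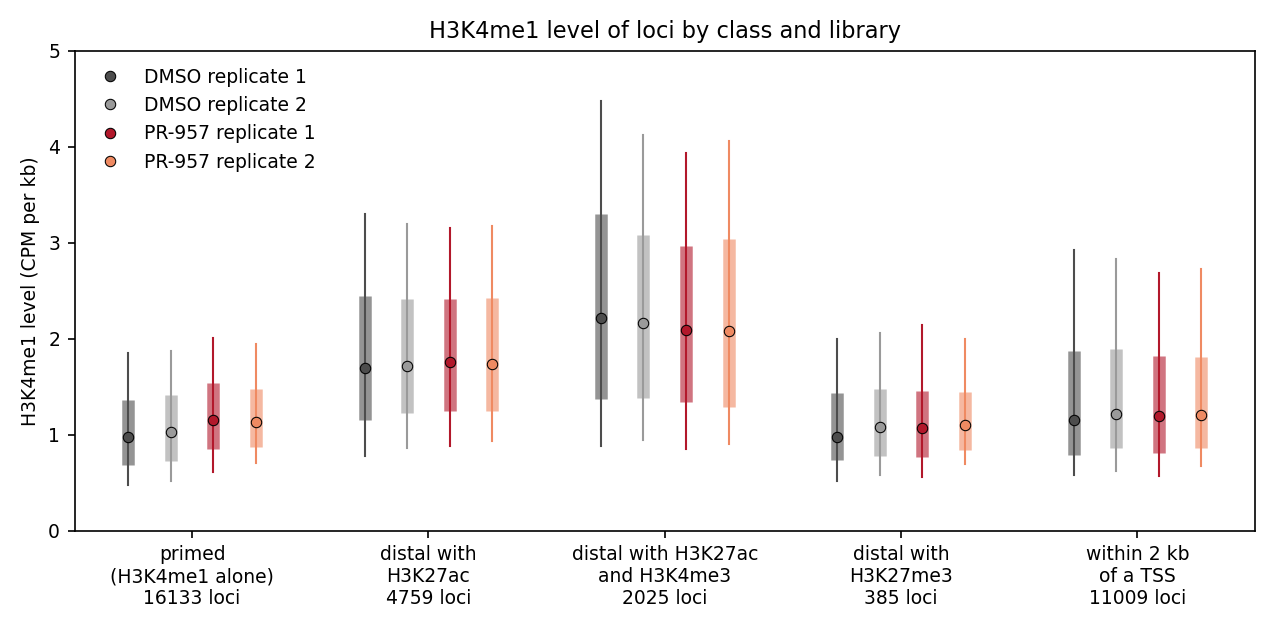
H3K4me1 level in CPM per kb of the widest interval for 5 classes of loci and the 4 libraries. Points are medians, thick bars the interquartile range and thin lines the 10th to 90th percentile. The primed medians lie between 0.972 and 1.15, below the H3K27ac medians of 1.69 to 1.76 in every library.

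The loci named next, and the strongest of each gene list below, were ranked by the CPM of the widest interval, which is not divided by its width and so favors wide loci. The highest CPM was in an intron of ANKRD11, a chromatin regulator, on chromosome 16 from 89435920 to 89454611, with 53.4 and 49.8 CPM in DMSO and 42.9 and 52.2 CPM in PR-957, over an interval of 18691 bp. Per length it had 2.65 CPM per kb, below the maximum of 5.36 CPM per kb in the class. A locus 113085 bp from LMO4, a cofactor of transcription factors, spanned 20118 bp on chromosome 1 from 87195647 to 87215765 and had 51.7 and 43.5 CPM in DMSO and 45.7 and 47.7 CPM in PR-957. The treatments overlapped at both. Introns of LRP1, an endocytic receptor, and of DOCK5, an activator of the GTPase RAC, and a locus near PAQR8, a membrane progesterone receptor, complete the 5 highest, with 41.0 to 52.8 CPM in the 4 libraries. The third of the widest loci, beside those at LMO4 and ANKRD11, lay in an intron of JARID2, which guides Polycomb repressive complex 2, with 45.9 and 42.2 CPM in DMSO and 39.9 and 44 CPM in PR-957. None of these loci passed the test between treatments.

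Many primed loci could share 1 nearest gene. Assigned to the nearest protein-coding TSS, the primed loci fell to 6423 genes, and 170 genes had 10 or more. JARID2 had the most, 25 loci over 800 kb, beside 21 distal loci with H3K27ac. DACH1, a transcription factor, had 23 primed loci and 2 with H3K27ac, and BCOR, a corepressor of Polycomb repressive complex 1, had 23 and 0. The Mediator subunit MED13L, the chromatin organiser SATB1 and the Polycomb protein SFMBT2 each had 22 primed loci, and KLF4, a factor of monocyte differentiation, had 21 over 687 kb with 2 distal H3K27ac loci. FOXP1 and TCF12, both transcription factors, had 19 each and no distal locus with H3K27ac. Long genes and gene deserts hold more loci for the same density, and these counts are not corrected for length.

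The effect of PR-957 on H3K4me1 was tested next. Intervals were compared in edgeR by the quasi-likelihood test with Benjamini-Hochberg adjustment over all 108158 intervals tested, and a primed locus was read from its widest interval. Of the 16133 primed loci, 16127 were tested and 6 had too few counts. At a false discovery rate of 0.05, 347 primed loci (2.15%) were higher in PR-957 and 34 (0.211%) lower. Over the widest interval of every H3K4me1 locus 1.59% were called higher and 0.627% lower, and over all intervals 1.24% and 0.701%. The primed loci thus had a share of higher calls somewhat above, and a share of lower calls below, that of all loci, of which they are a part.

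Most changes were small. Of the primed loci 81.2% stayed within 1.5-fold of DMSO, and the median log2 fold change was 0.19, with an interquartile range of -0.05 to 0.47. The median was 0.05 over all loci, 0.03 at distal loci with H3K27ac, -0.08 at distal loci with H3K27ac and H3K4me3, 0.05 at those with H3K27me3 and -0.04 near a TSS. At 5920 primed loci (36.7%) both PR-957 libraries lay above both DMSO libraries and at 1763 (10.9%) below, against 27.7% and 19.2% of all loci. Among the 347 higher loci the median log2 fold change was 0.99 and 170 changed at least 2-fold, while among the 34 lower loci it was -0.63 and 4 changed at least 2-fold. Both PR-957 libraries lay above both DMSO libraries at all 347 higher loci, and below them at all 34 lower loci. Without DMSO replicate 1, DMSO replicate 2 or PR-957 replicate 1, edgeR called 50, 91 and 67 loci higher and 8, 4 and 4 lower. The number of calls also rested on the tool, since DESeq2 called 3 primed loci higher and 0 lower of 14740 with an adjusted p, against 0.0273% and 0.00303% of all loci, while in edgeR 2844 primed loci had an unadjusted p under 0.05.

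**Figure D2:**
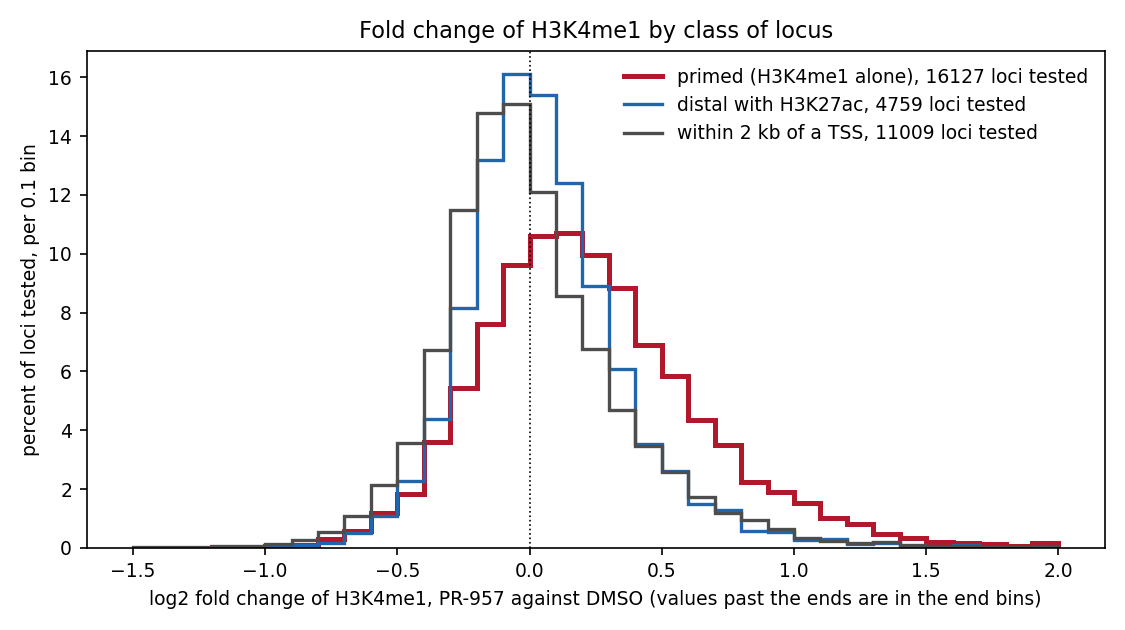
Distribution of the log2 fold change of H3K4me1 between PR-957 and DMSO over primed loci, distal loci with H3K27ac and loci within 2 kb of a TSS, as the percent of loci in bins of 0.1. The primed loci have a median of 0.19 and a longer upper side than the H3K27ac loci (median 0.03) and the loci near a TSS (median -0.04).

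The fold change moved with the base composition of the loci. In the quintile of primed loci poorest in GC (31.1% to 39.8%) the median log2 fold change was 0.39, with 151 loci higher and 0 lower. It was 0.25, 0.17 and 0.09 in the next 3 quintiles and 0.02 in the quintile richest in GC (47.5% to 67.0%), with 19 higher and 24 lower. In the poorest quintile the median level was 0.853 and 0.871 CPM per kb in DMSO and 1.21 and 1.08 in PR-957, and in the richest it was 1.06 and 1.15 in DMSO and 1.09 and 1.16 in PR-957. The shift was thus largest in the AT-rich loci. In the poorest quintile PR-957 replicate 1 was the higher of the pair, and in the richest quintile replicate 2 was. The same order was seen at the distal loci with H3K27ac, from 0.21 in the first range of GC to -0.03 in the last. With offsets that removed the trend on GC content, the primed median fell to 0.10, and 118 primed loci (0.732%) were higher and 31 (0.192%) lower, against 0.716% and 0.263% of all loci, so that the primed share was close to the share over all loci. Of these calls, 112 and 15 were also called without the offsets. With the offsets the primed median was 0.10 in the quintile poorest in GC and 0.09 in the richest.

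The fold change also moved with the number of listed intervals that made up a locus. The median log2 fold change was 0.35 for the 5735 primed loci of 1 interval and 0.34 for the 2782 of 2 intervals, but 0.04 for the 4845 of 4 intervals. Loci of 2 intervals had the most calls, with 140 higher (5.03%) and 1 lower (0.0359%). Distal loci with H3K27ac showed the same decline, with medians of 0.248, 0.245 and -0.011 for 1, 2 and 4 intervals. Of the H3K27ac loci of 2 intervals 6.77% were called higher, so the pattern was not particular to primed loci. Among primed loci of 1 interval the highest CPM was in PR-957 replicate 2 in 54.6% and in PR-957 replicate 1 in 26.2%. Among primed loci of 2 intervals it was in PR-957 replicate 1 in 53.0%. Among loci of 4 intervals the 4 libraries shared the first place more evenly, with 18.6% and 24.3% for DMSO and 35.0% and 22.1% for PR-957. Which library gave each interval is not stated in the files, and the part of the interval list in the result was not tested. With loci of 4 or more intervals alone, chosen as a setting after seeing the data, the median fell to 0.04, and with the GC offsets as well it was -0.03.

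At primed loci of 4 or more intervals the medians were near those of H3K27ac loci in the same ranges of GC, except in the quintile richest in GC. The H3K27ac loci were not limited by the number of intervals, and 75.8% of them had 4 or more. The median log2 fold change of these primed loci was 0.21, 0.11, 0.06, -0.01 and -0.10 from the poorest to the richest quintile in GC. That of the distal H3K27ac loci was 0.21, 0.11, 0.07, -0.002 and -0.03. Weakly marked loci moved most. The median was 0.46 in the quintile of primed loci with the lowest CPM per kb and 0.05 in the highest quintile, with 64 and 73 loci called higher. Across the primed loci the Spearman correlation of the log2 fold change was -0.33 with GC content and -0.35 with CPM per kb, over loci that share the same 4 libraries.

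**Figure D3:**
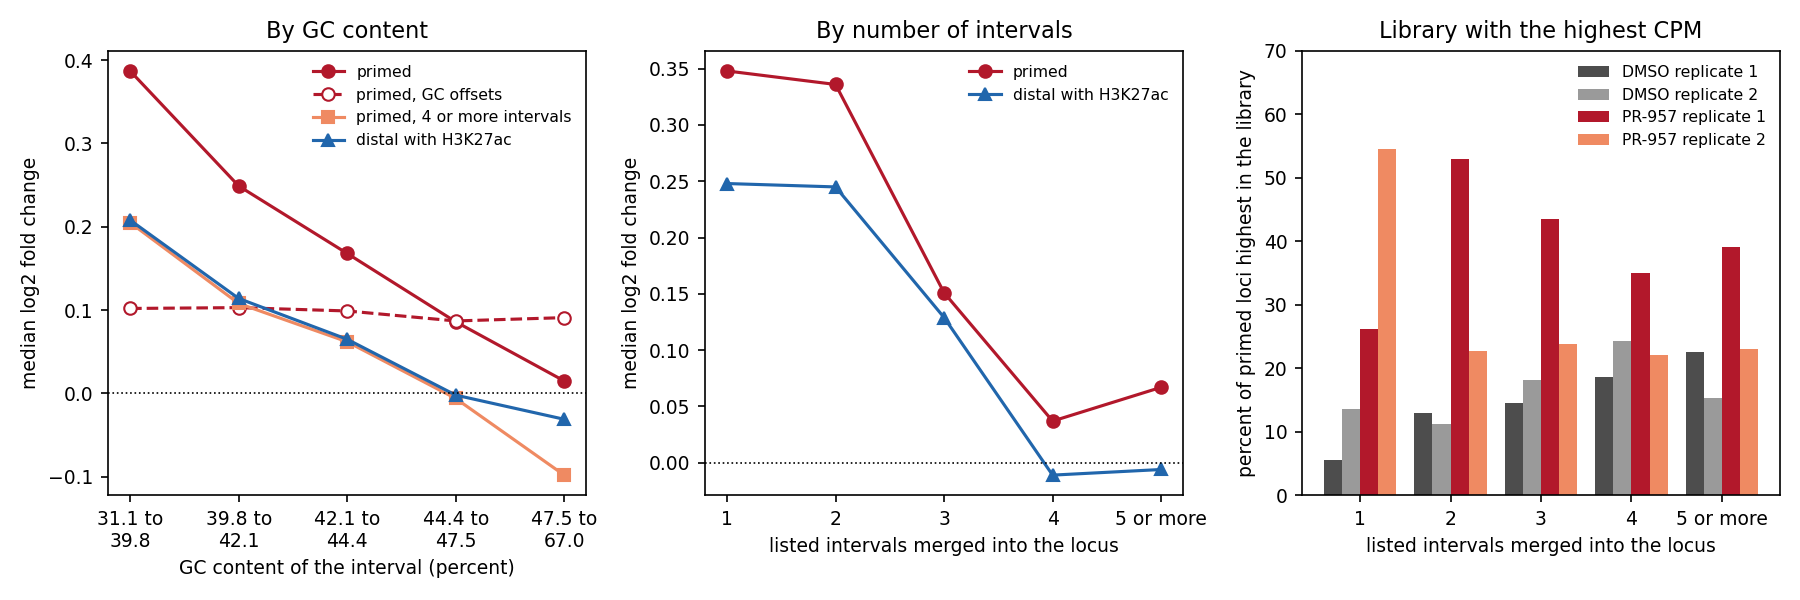
Left, median log2 fold change by quintiles of GC content for all primed loci, primed loci of 4 or more intervals and distal loci with H3K27ac, with open points for primed loci under GC offsets. Middle, the same by number of listed intervals, falling from 0.35 at 1 interval to 0.04 at 4 for primed loci. Right, percent of primed loci in which each library had the highest CPM, led by PR-957 replicate 2 (54.6%) for loci of 1 interval.

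The higher loci with the smallest p-values lay in introns, in noncoding genes and in gene deserts. An intron of BCKDHB, which encodes a subunit of the branched-chain keto acid dehydrogenase, held a locus on chromosome 6 from 80162876 to 80166870, 35607 bp from the TSS. Its level was 4.51 and 3.22 CPM in DMSO and 8.86 and 8.13 CPM in PR-957 (log2 fold change 1.12, standard error, SE, 0.183, edgeR adjusted p = 6.19e-06). A locus on chromosome 6 from 74604885 to 74611416, 477124 bp from COL12A1, which encodes a collagen chain, had 3.59 and 4.26 CPM in DMSO and 9.63 and 7.48 CPM in PR-957 (log2 fold change 1.11, SE 0.183, edgeR adjusted p = 7.20e-06). At both loci, chosen among those without overlap between treatments, each PR-957 library was well above each DMSO library. The locus nearest SARAF, a regulator of calcium entry, on chromosome 8 had the smallest p-value of all primed loci and a GC content of 44.4%. It rose from 2.27 and 2.47 CPM in DMSO to 6.03 and 7.61 CPM in PR-957 (log2 fold change 1.54, SE 0.216, edgeR adjusted p = 1.07e-07). The BCKDHB, COL12A1 and SARAF loci are the 3 that DESeq2 also called.

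The locus nearest DHRS2, which encodes a short-chain dehydrogenase, had a GC content of 51.7%, the highest of the 10. It lay on chromosome 14 from 23645384 to 23649673, 2335 bp from the TSS, and had 4.10 and 4.89 CPM in DMSO and 6.61 and 10.8 CPM in PR-957. Its log2 fold change of 0.99 (SE 0.175, edgeR adjusted p = 5.89e-05) became 1.08 with the GC offsets. The PR-957 libraries differed from each other here, and without PR-957 replicate 2 the locus no longer passed. An intron of KCNQ5, which encodes a potassium channel, had 8.47 and 8.45 CPM in DMSO and 13.7 and 14.6 CPM in PR-957, with close replicates in both treatments and a log2 fold change of 0.75 and 0.58 with the GC offsets.

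Other higher loci were weak in DMSO. The locus near SSX2IP, a protein of centrosomes and cell junctions, rose from 1.42 and 1.17 CPM to 3.98 and 3.91 CPM, a log2 fold change of 1.59. A locus 565789 bp from CITED2, a partner of CREBBP and EP300, rose from 1.86 and 1.59 CPM to 5.52 and 3.87 CPM. A locus 412001 bp from SLITRK5, a neuronal membrane protein, rose from 2.71 and 2.42 CPM to 7.89 and 4.26 CPM. For the CITED2 and SLITRK5 loci PR-957 replicate 1 was the higher of the pair, and both lost the call without it. The loci nearest RUNX1T1, known as the fusion partner of RUNX1 in leukemia, and ANGPT1, the ligand of the receptor TEK, rose from 3.93 and 4.52 to 10.7 and 6.52 CPM and from 2.00 and 3.30 to 6.74 and 6.09 CPM. The call was lost without PR-957 replicate 1 at RUNX1T1 and without DMSO replicate 1 at ANGPT1.

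The lower loci were richer in GC than the higher loci and had a higher level over the 4 libraries. Their median GC content was 48.4%, against 40.4% for the higher loci. Their median level was 6.37 CPM, against 3.24 CPM, and per length it was 1.6 against 1.07 CPM per kb. The smallest p-value belonged to an intron of AGBL4, which encodes a carboxypeptidase of tubulin, on chromosome 1 from 48657147 to 48663299. It had 13.6 and 14.3 CPM in DMSO and 7.44 and 10.1 CPM in PR-957 (log2 fold change -0.65, SE 0.138, edgeR adjusted p = 0.00198). An intron of RAP1GAP2, a GTPase-activating protein of RAP1, on chromosome 17 from 2817906 to 2825947 fell from 15.2 and 16.8 CPM to 10.9 and 10.4 CPM (log2 fold change -0.59, SE 0.131, edgeR adjusted p = 0.00376). A locus 4452 bp from SLC35B1, a transporter of the endoplasmic reticulum, fell from 8.47 and 7.36 CPM to 5.52 and 4.04 CPM.

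Among the remaining 7, a locus 30585 bp from CCR6, a chemokine receptor, in an intron of another gene fell from 9.35 and 9.37 CPM to 6.03 and 5.65 CPM, and an intron of SMAD3, which transmits TGF-beta signals, from 4.88 and 4.93 CPM to 2.57 and 2.70 CPM. An intron of SEMA6C, a semaphorin, fell from 3.79 and 3.09 CPM to 1.41 and 1.70 CPM, and a locus 22171 bp from MSI2, an RNA-binding protein of hematopoietic stem cells and myeloid leukemia, from 3.79 and 4.68 CPM to 1.54 and 2.65 CPM. The others lay near UGCG, which makes glucosylceramide, and in introns of ABTB2 and of ATP2B2, a calcium pump. Each of the 10 lower loci lost its call when at least 1 of the 4 libraries was left out, and DESeq2 called none of them. With the GC offsets the loci at ATP2B2, SEMA6C and MSI2 no longer passed.

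Of the 21 KMT2A target genes that the study names, 7 were nearest to a primed locus, with 67 loci in all. RUNX2 had 16, PBX3 15, MEIS1 and CDK6 13 each, MEF2C 8, and FLT3 and GNAS 1 each, while no HOXA gene had one. None of the 67 passed the test. Their median log2 fold change of 0.30 was above that of all primed loci, with a median GC content of 39.6%, and it was 0.05 with the GC offsets. The strongest lay in an intron of RUNX2, a transcription factor, with 16.1 and 13.5 CPM in DMSO and 17.6 and 18.8 CPM in PR-957, and near CDK6, a cell cycle kinase, with 11.4 and 12.9 CPM in DMSO and 13.0 and 10.3 CPM in PR-957. The groups overlapped at CDK6 but not at RUNX2, where the adjusted p was 0.168 in edgeR. These genes were taken from the study's text on the same cells, so the list is not independent of the data.

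Of 26 genes of myeloid transcription factors 19 had 110 primed loci, led by KLF4 with 21, RUNX1 with 18 and ZEB2 with 16, and 3 loci were higher and 0 lower, with a median log2 fold change of 0.18. Both are near the values of all primed loci, of which 2.15% were higher, with a median of 0.19. The strongest lay in an intron of RUNX1, with 19.7 and 19.5 CPM in DMSO and 20.2 and 18.8 CPM in PR-957, and 376105 bp from KLF4, with 14.9 and 14.7 CPM and 14.4 and 14.1 CPM. Neither passed. The called loci, named here because they were called, were another in an intron of RUNX1, one in an intron of CBFB, the binding partner of RUNX1, and one 432899 bp from MYC, the proliferation factor. At RUNX1 the level was 7.96 and 10.1 CPM in DMSO and 13.4 and 12.5 CPM in PR-957 (log2 fold change 0.52, SE 0.139, edgeR adjusted p = 0.0205). CBFB rose from 1.52 and 1.59 CPM to 3.21 and 3.26 CPM and the locus near MYC from 9.15 and 9.03 CPM to 13.5 and 12.2 CPM, and with the GC offsets only the RUNX1 locus still passed.

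Of 28 genes of mature monocytes and granulocytes 16 had 34 primed loci, with a median log2 fold change of 0.06. Of these 1 was called higher, against 2.15% of all primed loci. It lay near the scavenger receptor gene CD163, at 1.12 and 1.80 CPM in DMSO and 3.02 and 3.22 CPM in PR-957, and no longer passed with the GC offsets. The strongest, near the adhesion receptor gene CD44 (17.7 and 18.4 CPM in DMSO, 17.2 and 15.4 CPM in PR-957) and in an intron of CD86, a costimulatory receptor (14.6 and 13.1 CPM, 12.1 and 15.7 CPM), did not pass. Genes of other blood lineages had 21 loci at 9 of 28 genes, of which 1 was called lower and 0 higher, against 0.211% and 2.15% of all primed loci. The locus 2847 bp from CD3E, a subunit of the T cell receptor complex, had 44.6 and 40.6 CPM in DMSO and 30.3 and 34.5 CPM in PR-957 (log2 fold change -0.39, SE 0.115, edgeR adjusted p = 0.0430), and no longer passed with the GC offsets. A locus 312712 bp from BCL11B, a factor of T cell development, had 19.2 and 18.4 CPM in DMSO and 22.2 and 21.9 CPM in PR-957 and did not pass. Of 24 genes of non-blood lineages 7 had 16 loci, none of them called, the strongest in an intron of CDH1 and near EPCAM, at 11.7 to 15.5 CPM.

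The genes closest to the drug's target and to the response to proteasome inhibition were examined in the same way. Of 38 proteasome genes 8 had 18 primed loci with a median log2 fold change of 0.13, and the strongest, in introns of PSMA1, had 18.1 and 15.8 CPM in DMSO and 19.3 and 15.3 CPM in PR-957. Of the 18, 1 was called higher, against 2.15% of all primed loci. The called one, 53577 bp from PSMA6 within an intron of PRORP, rose from 0.779 and 0.878 CPM to 2.89 and 1.65 CPM and did not pass with the GC offsets. Among the targets of NFE2L2, the transcription factor of the antioxidant response, the median lay above that of all primed loci. Of 25 such genes 11 had 29 loci with a median log2 fold change of 0.41, which was 0.34 with the GC offsets. Of the 29, 24 had a positive log2 fold change, as 69.7% of all primed loci did. GCLC had 8 of the 29, with a median of 0.725, and SLC7A11 had 7, so the loci are not separate targets. The 29 had a median of 0.904 CPM per kb against 1.07 for all primed loci, and the part of this lower level was not tested. The highest of the 29 by CPM, near ME1, a malic enzyme, had 7.66 and 8.78 CPM in DMSO and 11.7 and 10.3 CPM in PR-957. It missed the threshold (adjusted p = 0.108 in edgeR).

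All 3 called loci among the 29 of the NFE2L2 list lay around 1 gene, GCLC, on chromosome 6. It encodes the catalytic subunit of the enzyme that limits glutathione synthesis and had 8 primed loci over 194 kb. Of all primed loci 2.15% were called higher, and of those on chromosome 6 3.76% were. The locus on chromosome 6 from 53431394 to 53434504, 66846 bp from the TSS, rose from 1.63 and 1.38 CPM to 5.20 and 3.04 CPM (log2 fold change 1.42, SE 0.290, edgeR adjusted p = 0.000925). The locus from 53582635 to 53585916 rose from 1.86 and 1.80 CPM to 4.49 and 3.57 CPM, and the one from 53531286 to 53534656, in an intron of GCLC, from 2.85 and 3.89 CPM to 6.29 and 5.57 CPM. The strongest GCLC locus, 33561 bp from the TSS, had 9.11 and 7.11 CPM in DMSO and 9.82 and 9.65 CPM in PR-957 and did not pass. With the GC offsets the first 2 of the called loci still passed.

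Of 24 genes of the KMT2 methyltransferases and their partners, 12 had 38 primed loci, among them AFF1 with 8 and CREBBP with 7, with a median log2 fold change of 0.11. The strongest, in an intron of CREBBP, had 30.8 and 28.0 CPM in DMSO and 29.0 and 30.2 CPM in PR-957, and that nearest KDM1A, a demethylase of H3K4, had 18.1 and 17.6 CPM and 17.0 and 18.8 CPM. Neither passed. Of the 38, 1 was called higher, against 2.15% of all primed loci. This was another locus, in an intron of KDM1A, at 0.542 and 0.502 CPM in DMSO and 2.95 and 1.00 CPM in PR-957, and it was not called with the GC offsets. Each of the 10 called loci of these gene lists, at RUNX1, MYC, CBFB, CD163, CD3E, PSMA6, KDM1A and the 3 around GCLC, lost its call without PR-957 replicate 1, and DESeq2 called none of them.

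The higher calls were spread unevenly over the chromosomes. Chromosome 8 held 842 primed loci, 5.22% of all, but 57 of the 347 higher ones (16.4%) and none of the lower ones. Of its primed loci 6.77% were called higher, and 3.70% of its other H3K4me1 loci were, the highest share of any chromosome for both. The median level of its primed loci was 0.938 and 1.05 CPM per kb in DMSO and 1.3 and 1.22 in PR-957, and the median log2 fold change was 0.32, which was 0.17 with the GC offsets. Chromosome 6 held 44 of the higher loci, 3.76% of its primed loci. With the GC offsets 17 primed loci were called higher on each of the 2 chromosomes. ANGPT1, ATP6V0D2, NSMCE2 and GCLC each had 3 higher loci, the most of any gene.

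**Figure D4:**
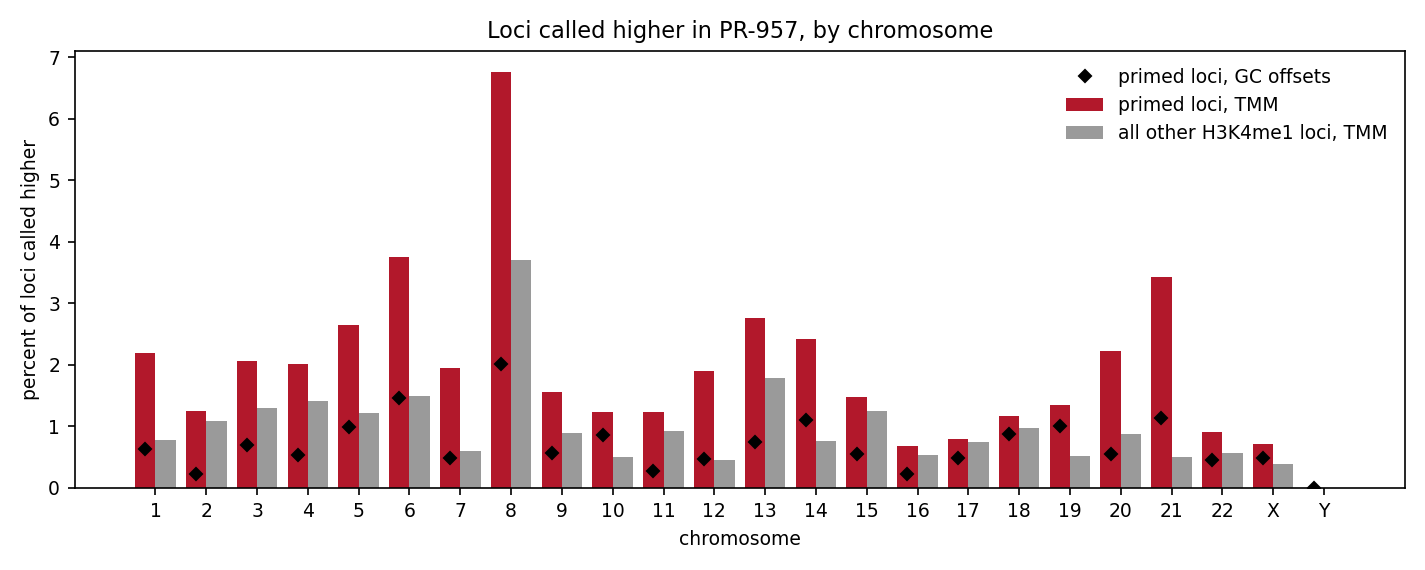
Percent of primed loci (red) and of all other H3K4me1 loci (gray) called higher in PR-957 on each chromosome, with diamonds for primed loci under GC offsets. Chromosome 8 leads with 6.77% of primed and 3.70% of other loci, followed by chromosome 6 with 3.76% of primed loci.

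The shares of motif matches in the 300 bases at the middle of each locus were close between primed and active elements for some motifs and apart for others. The RUNX motif was found in 24.6% of primed windows, 23.7% of windows with H3K27ac and 23% of all 34932 windows. The C/EBP motif was in 18.0%, 16.5% and 16.0%, AP-1 in 13.4%, 12.7% and 11.8%, IRF in 11.6%, 9.94% and 10.4%, and PU.1 in 3.73%, 3.17% and 3.23%. The GATA motif was in 18.8% of primed windows against 14.2% of those with H3K27ac and 15.7% of all, and the MEIS-HOX motif in 5.43% against 3.91% and 4.24%. The last 2 of these motifs are rich in A and T, and primed windows had a median GC content of 43.7% against 47.3% with H3K27ac, whose part in these shares was not tested. ARE matches were less frequent at primed loci, with 11.3% against 12.7% and 11.8%, as were CTCF matches, with 0.304% against 0.546% and 0.472%.

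Among the 347 higher loci 73 windows (21.0%) held an AP-1 match, against 13.4% of all primed windows and 3 of the 34 lower windows (8.82%). An ARE match was in 52 (15.0%), a GATA match in 82 (23.6%) and a MEIS-HOX match in 26 (7.49%), against 11.3%, 18.8% and 5.43% of all primed windows. In the 34 lower windows these shares were 14.7%, 14.7% and 2.94%, so that ARE matches were about as frequent in both directions. C/EBP matches were in 20.2% of the higher and 20.6% of the lower windows. RUNX matches were no more frequent in the higher windows than in all primed windows, at 23.3%. The median GC content of the higher windows was 39.7% and that of the lower windows 50.0%, and its part in these shares was not tested. A match describes the letters in the window and does not show that a factor was bound.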

How the data were processed

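Cut&Tag was measured in 16 libraries of MOLM-13 cells, 4 of them for H3K4me1, and 2 IgG samples were not analysed here. Reads were aligned to hg38 with Bowtie2, and the submitters' processing notes also name Trimmomatic 0.39, Picard 2.27.1, SAMtools 1.7, SEACR 1.3 and deepTools 3.5.1. The deposited values are whole-number counts that the authors made over 1 list of intervals for each modification and did not normalize. The counter and the treatment of duplicates are not given in the sources used here. Interval positions follow the files, and those of the printed sequences are 1-based.

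H3K4me1 intervals that overlap were merged, TSS and annotations were taken from GENCODE release 44, and GC content and sequences from hg38. Intervals kept by filterByExpr (minimum count 10) were normalized by TMM and tested two-sided in edgeR 4.0.16 (R 4.3.3) by the quasi-likelihood test with Benjamini-Hochberg adjustment at 0.05, in the 4 H3K4me1 libraries, without a block. CPM uses the effective library size. GC offsets were a loess fit (span 0.3) on GC content of each library's deviation from the mean log2 CPM (prior count 2). The test was checked on simulated counts with 200 changed intervals. It recovered 20.5% of changes of 1.5-fold and 68.5% of changes of 2-fold, with 3 and 6 false calls. The simulated counts followed the fitted model, without a trend on GC content or a choice of intervals by level. False calls in the real data were therefore not measured. Depth differed between libraries, as given with the totals.

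The members and lists were chosen with earlier results of these data known. Named were the 10 higher and 10 lower called loci with the smallest p-values and no overlap between treatments, the 5 with the highest CPM, the 3 widest, and 2 per gene list by CPM, for 8 gene lists. Called loci of a list were added after their values were seen. Alternatives were median-of-ratios factors, library size, cyclic loess (limma 3.58.1), GC offsets, DESeq2 1.42.0, other filters, 1 interval per locus, the interval with the highest count, other distances, 2 or more intervals, motif windows of 200 and 600 bases, a replicate block, and leaving out each library. Loci of 4 or more intervals, and the block with GC offsets, were added after seeing the data.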

Additional observations from a re-analysis of the deposited data

How the results depend on the processing

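Higher calls among the primed loci outnumbered lower ones under each alternative run, but their number changed. The count of higher loci, 347 as reported, was 229 under cyclic loess offsets, 118 under GC offsets, 168 with 1 interval per locus in the fit, 109 among loci of 4 or more intervals, 33 among these with GC offsets, and 3 with DESeq2. The count of lower loci, 34 as reported, was 19 under library size only, 22 with no other mark within 5 kb, and 0 with DESeq2. Leaving out 1 library gave 50 (without DMSO replicate 1) to 346 (without PR-957 replicate 2) higher and 4 (without DMSO replicate 2 or PR-957 replicate 1) to 30 lower loci. The median log2 fold change of 0.185 was 0.082 under cyclic loess offsets, 0.096 under GC offsets, 0.109 with a mean count of at least 50, 0.042 among loci of 4 or more intervals and -0.027 among these with GC offsets, the only setting in which it turned. The cause of these differences was not tested. Median-of-ratios factors, no count filter, other TSS distances, TSS of every gene type, and the interval with the highest count left both counts within 1.5-fold.

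The number of primed loci, 16133, was 10398 with 2 or more intervals and 5538 with 4 or more. The DMSO level was then 1.2 and 1.5 CPM per kb, and the PR-957 level 1.31 and 1.57, or 1.16 under library size only. Leaving out 1 library only returns the median of the other, 0.972 or 1.03 in DMSO and 1.13 or 1.15 in PR-957, and is no separate check. The motif ratios stayed within their counting intervals in windows of 200 and 600 bases.

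The replicate numbers were shared by the treatments but did not pair the libraries, with a correlation of deviations of 0.007. With the number as a replicate block 334 loci were higher and 35 lower, with a median of 0.179, and with the block and GC offsets 83 were higher and 24 lower, with a median of 0.090. Of 417 values of the called loci given by name under the alternatives, 295 still passed, 122 did not and none turned. The other 21 named loci, which were not called in the report, were not called under any alternative either. PR-957 replicate 1 had the lowest total count, and with 2 libraries per treatment small changes at weak loci can pass undetected.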
